A study of Caenorhabditis elegans with 4 samples.

Results

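The regions described here are the 1082 CEH-30::GFP regions of the X chromosome of Caenorhabditis elegans, of 6672 in the whole list (16.2%). They are all lines of the authors' list of bound regions whose chromosome is X, and no measured value was used to choose them. X was divided by the midpoint of each region into a left arm below 6.137 Mb, a centre up to 12.48 Mb and a right arm beyond it. The left arm held 377 regions, the centre 375 and the right arm 330. The list came from chromatin immunoprecipitation sequencing (ChIP-seq) of strain OP120, an unc119(ed3) mutant that carries the transgene wgIs120. The transgene holds ceh-30 fused to TY1, EGFP and FLAG tags together with unc119, was brought in by bombardment, and follows the expression pattern of ceh-30 according to the labels. All 4 samples shared this genotype. They were 2 of DNA precipitated with a goat antibody against GFP and 2 of input DNA, with 1 of each kind in each of 2 replicates. All were from late embryos labelled as hermaphrodite, from worms grown at 20 °C, and no sample without the tag was described. Recovery that depends on CEH-30 and other recovery by the antibody therefore cannot be told apart.

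CEH-30 is a homeodomain transcription factor of the BarH family, and its gene lies on X. It is best known for keeping alive the CEM neurons of the male head, which die in hermaphrodite embryos. Homeodomain proteins bind short, A/T-rich stretches of DNA that occur throughout the genome. The X chromosome of the worm differs from the autosomes in several ways: in hermaphrodites the dosage compensation complex is loaded onto both copies and lowers their transcription, and genes with roles in the germ line are scarce on it. Autosomes have gene-rich centres and repeat-rich arms with high recombination, and on X this contrast in gene density is weaker.

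The list held 1 q-value per region over both replicates, so none of the values below has an error between replicates, and no test over samples was possible. Regions of one list share libraries, depth and caller and are not replicates, so all comparisons are descriptions without a p-value. The intervals given with shares (Wilson) and medians (exact binomial) are at the 95% level and cover counting error only. The strength of a region is the −log10 of the q-value that the authors deposited, which reflects depth as well as enrichment, and depth is unknown. Coordinates are 1-based and refer to WormBase release WS180. Genes under the regions, and their exons and introns, were not analysed here.

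Regions were spread evenly over X. The density was 61.4 per Mb in the left arm, 59.1 per Mb in the centre and 63.0 per Mb in the right arm. The centre held 34.7% of the X regions (interval 31.9% to 37.5%) and makes up 35.8% of the span, which lies within that interval. The left arm held 34.8% of the regions on 34.6% of the span, and the right arm held 30.5% on 29.5%. Both of those shares of the span also lie within the intervals of the shares of regions, 32.1% to 37.7% and 27.8% to 33.3%. These intervals treat regions as separate, although regions were clustered at a finer scale. The variance of counts in 50 kb windows of X was 1.52 times their mean. Per base, the centre was 0.951 times as dense as both arms together. This ratio stayed between 0.909 and 1.00 under 9 other settings of the borders, the span, the q-value limit, the joining of neighbours and the narrow regions. Without the regions of the 7 windows of 50 kb that tie as most crowded, of which 4 lie in the centre, it was 0.894. The ratio was 0.871 without the regions of the first 5 of these windows by position, a cut that removes the 4 of the centre and neither of the right arm. In both cuts the length of the windows stayed in the span of the zones, which lowers the ratio by construction.

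In steps of 1 Mb the counts ran from 51 regions at 7 to 8 Mb to 72 regions at 2 to 3 Mb, over the 17 full bins of X. The right arm had a similarly full bin at 13 to 14 Mb, with 71 regions. The highest bin thus held 1.41 times as many regions as the lowest. On the 5 autosomes this ratio ran from 1.69 on I to 3.91 on V. The standard deviation between the bins of X was 6.87 regions around a mean of 60.8, a coefficient of variation of 11.3%. IV, which has a like density of 59.2 per Mb, had a coefficient of variation of 19.7%, and V had 27.9%. On this measure X was the most even of the 6 chromosomes, and the difference was not tested.

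**Figure D1:**
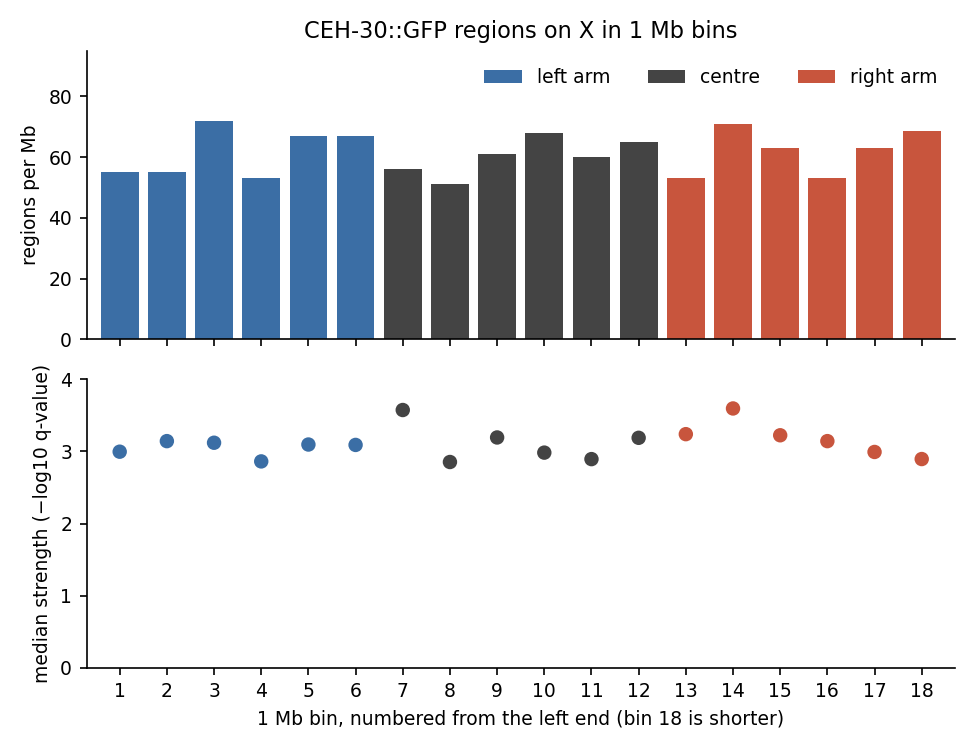
Regions per Mb (top) and median strength, the −log10 of the q-value (bottom), in consecutive 1 Mb bins of X from its left end, coloured by the zone of the bin's midpoint; bins 7 and 13 each cross a border, and bin 18 is shorter. The full bins hold between 51 and 72 regions, their median strengths lie between 2.85 and 3.59, and neither arm stands apart from the centre in density.

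Widths were also alike in the 3 zones. The median width was 190 bp in the left arm (interval 160 to 205 bp), 196 bp in the centre (183 to 218 bp) and 200 bp in the right arm (188 to 218 bp). Regions of 400 bp or more made up 13.0%, 14.1% and 14.2% of the zones in that order. The narrowest regions were fewest in the left arm, a difference that was not tested. Those under 20 bp made up 7.96% of the left arm (30 regions), 12.3% of the centre (46 regions) and 10.6% of the right arm (35 regions), with overlapping intervals of 5.63% to 11.1%, 9.32% to 16.0% and 7.73% to 14.4%. Regions covered 1.32% of the left arm, 1.34% of the centre and 1.53% of the right arm.

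Regions of the right arm were somewhat stronger, a difference that was not tested. Its median strength was 3.22 (interval 2.99 to 3.47), against 3.03 in the left arm (2.89 to 3.22) and 3.08 in the centre (2.94 to 3.24). These intervals overlap. The gap was wider in the upper part of the distribution: q-values below 1e-05 were found for 28.5% of the right arm's regions (interval 23.9% to 33.6%), for 20.4% of the left arm's (16.7% to 24.8%) and for 22.4% of the centre's (18.5% to 26.9%). Of the 108 strongest regions of X, 41 lay in the right arm, 36 in the left arm and 31 in the centre, which is 12.4%, 9.55% and 8.27% of their regions. The right arm had the highest median strength under all 10 alternatives tried for it. These are cuts, joins and border shifts of the same list, and none leaves out the bin at 13 to 14 Mb, so they are not separate support. When each 1 Mb bin of the right arm was left out in turn, the share of its q-values below 1e-05 stayed between 27.3% and 29.4%. The right arm's median was 3.09 without the bin at 13 to 14 Mb and at least 3.22 without any other bin. Without that bin it was thus about level with the 3.08 of the centre. By 1 Mb bin, median strengths ran from 2.89 to 3.59 in the right arm, from 2.85 to 3.57 in the centre and from 2.86 to 3.14 in the left arm. At the weak end, 48.3% of the left arm, 46.9% of the centre and 44.5% of the right arm had q-values of 0.001 or more, within 10 times of the list's limit of 0.01.

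The zones thus differed little beside the spread within each of them. The middle 50% of strengths ran from 2.39 to 4.64 in the left arm, from 2.43 to 4.64 in the centre and from 2.53 to 5.32 in the right arm. Values of the single regions next to the borders are given for reference only. The last region of the left arm, at X 6134779 to 6134924, had a strength of 3.01, and the first of the centre, at 6146022 to 6146111, had 2.63. The last region of the centre was 9 bp wide, at 12467860 to 12467868, with a strength of 3.39. The first of the right arm, at 12480521 to 12480646, had 2.64.

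**Figure D2:**
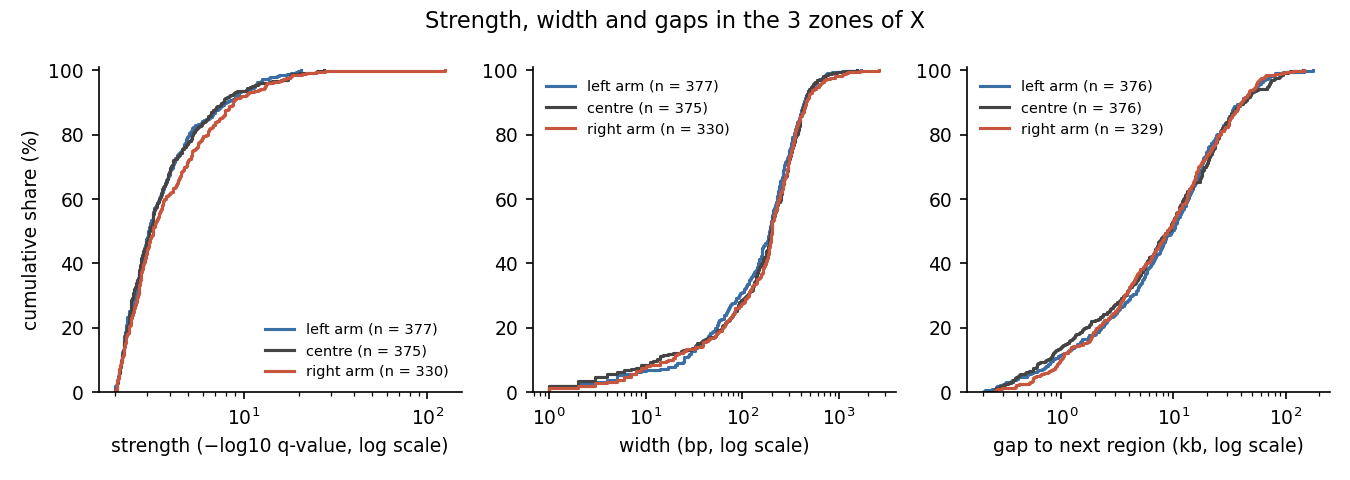
Cumulative share of regions by strength (−log10 of the q-value) and by width in bp, and of the gaps between neighbours by length in kb, for the left arm, the centre and the right arm of X; all 3 horizontal axes are logarithmic. The curves of width and gap length run close together, and the right arm's strength curve lies to the right of the others in the upper part, where 28.5% of its regions have q-values below 1e-05.

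One region stood far above the rest of X. It lay in the right arm at X 16929367 to 16931967, spanned 2601 bp and reached a q-value of 6.73e-126, a strength of 125. It was both the strongest and the widest region of X and ranked 8 in the whole list. The second strongest region of X, at 16612060 to 16612966, spanned 907 bp, with a q-value of 1.41e-28, a strength of 27.9 and rank 46 in the list. The strength of the first was thus 4.49 times that of the second. On the autosomes the same ratio ran from 1.52 on I to 2.12 on III. Their second strongest regions had strengths from 79.9 on III to 165 on I, so X was the only chromosome of the 6 with a single region above a strength of 30. The 10th strongest region of X, with 20.0, was close to that of IV, with 18.6.

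The surroundings of the strongest region held 7 more regions within 50 kb of its midpoint. On its left, a region of 188 bp at 16928122 to 16928309 was weak, with a q-value of 0.00123. On its right, 16933994 to 16934181 reached 1.63e-09 at the same width. Then came 3 regions of 72 to 117 bp with strengths of 2.21 to 2.70, between 16940924 and 16943405. Beyond these, 16944401 to 16944886 had a q-value of 1.10e-06. The farthest, at 16961212 to 16961694, had 3.64e-11 and ranked 72 on X. None of the 7 was among the 50 strongest regions of X. The gaps beside the strongest region were 1057 and 2026 bp long.

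**Figure D3:**
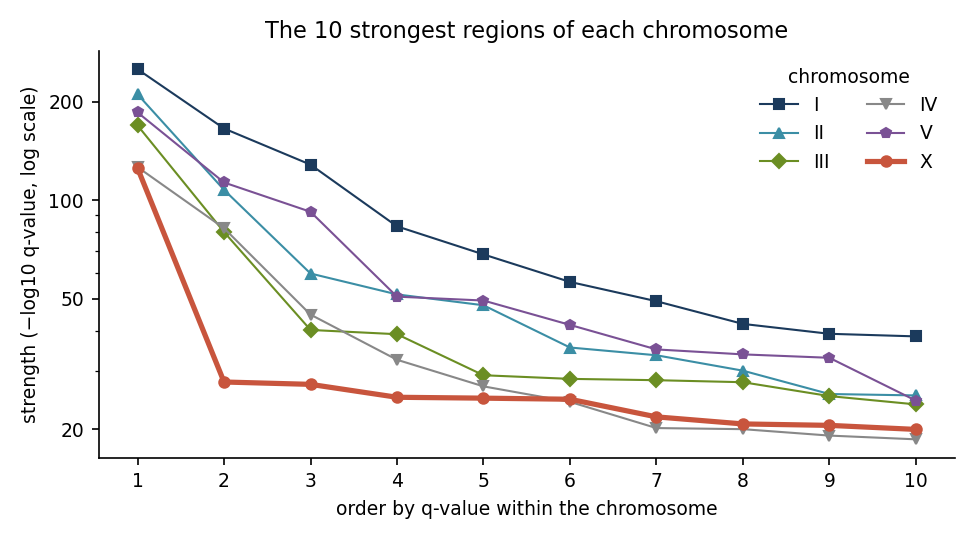
Strength (−log10 of the q-value, logarithmic axis) of the 10 strongest regions of each chromosome in order, with X as the thick line. X falls from 125 to 27.9 between its first and second region, while the second region of every autosome lies at 79.9 or above.

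The next strongest regions of X were shared among the zones. In the centre, the strongest was at X 11093853 to 11094311, 459 bp wide, with a q-value of 4.03e-28. A much wider region of 1523 bp, at 9187125 to 9188647, followed with 9.60e-26. Close to it in strength was 11605330 to 11606479, of 1150 bp, with 1.37e-25. The remaining 2 named in the centre were 11030869 to 11031630, with 1.10e-20, and 8155628 to 8156279, with 2.42e-19. The strengths of these 5 regions ran from 18.6 to 27.4.

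In the right arm, 15274843 to 15275651 had a q-value of 2.12e-25, the third of the arm. It lay between close neighbours, with gaps of 554 and 914 bp. Next was 13700587 to 13701050 with 1.59e-22, and 14525668 to 14526019 with 1.80e-21, which was only 352 bp wide.

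The left arm had the weakest leaders. Its strongest region, at 5811815 to 5812656, spanned 842 bp, with a q-value of 2.92e-21 and rank 9 on X. Those at 2996912 to 2997387 and at 5085378 to 5085851 followed, with 2.16e-20 and 4.15e-20. Then came 3035898 to 3036320 with 3.61e-19 and 1626965 to 1627310 with 5.99e-19. The 5 strongest of the left arm thus spanned strengths of 18.2 to 20.5, while those of the right arm spanned 20.7 to 125. A q-value below 1e-20 was found for 1 region of the left arm (0.27%), 3 of the centre (0.80%) and 5 of the right arm (1.52%). The intervals of these shares overlap, and the share was 0.83% on X as a whole and 1.77% on the autosomes.

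Regions wider than 1 kb were about as rare on X as on the autosomes, at 0.92% and 0.97% of the regions. The widest of X, of 2601 bp, was however shorter than the widest of each autosome, which ran from 4073 bp on III to 14112 bp on V. Those of 400 bp or more made up 13.8% on X, 10.8% on the autosomes, 11.1% on IV and 12.1% on V, which was not tested. X held 10 regions wider than 1 kb. Of these, 6 lay in the right arm (1.82% of its regions), 2 in the left arm (0.53%) and 2 in the centre (0.53%), with overlapping intervals. Their strengths differed widely. The widest of the left arm, of 1674 bp at X 4960481 to 4962154, had a strength of 11.6, and the other, of 1065 bp at 4222336 to 4223400, had 8.22. Both wide regions of the centre are among its 5 strongest and are given above. In the right arm, the region of 1630 bp at 13143937 to 13145566 had a strength of 18.04. The remaining 4 of the right arm had strengths of 12.3 to 18.3, and they lay at 14559466 to 14560630, at 14908256 to 14909487, at 15606658 to 15607722 and at 17479554 to 17480657. The third widest region of the centre, of 956 bp at 7650869 to 7651824, was weak for its width, with a q-value of 3.26e-05.

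Strength rose with width in every zone. Spearman's rho between them was 0.68 in the left arm (377 regions), 0.61 in the centre (375) and 0.67 in the right arm (330). Width and q-value come from the same caller and the same reads and do not measure separate properties. Median strengths on X were 2.69 for regions under 20 bp, 2.44 from 20 bp to under 100 bp, 2.77 from 100 bp to under 200 bp, 4.0 from 200 bp to under 400 bp and 6.97 from 400 bp to under 1000 bp. Regions under 20 bp were thus no weaker in the median than those from 20 bp to under 100 bp, and this order was seen in the centre (2.69 and 2.44) and the right arm (2.74 and 2.45) but turned in the left arm (2.31 and 2.51).

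**Figure D4:**
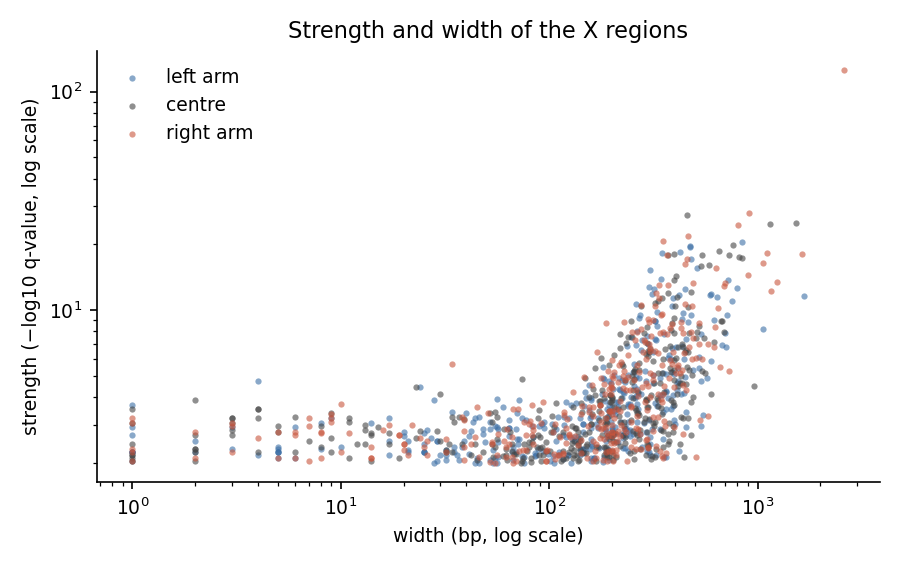
Strength (−log10 of the q-value) against width in bp for the 1082 X regions, coloured by zone, with both axes logarithmic. No region below 200 bp exceeds a strength of 8.79, wider regions reach higher in all zones, and the single point at the upper right is the region of 2601 bp in the right arm.

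From 20 bp up, X regions had lower median strengths than those of the 5 autosomes together in each class of width, a difference that was not tested. For regions from 200 bp to under 400 bp the median was 4.0 on X (380 regions) and 5.51 on the autosomes (1728 regions). It was 4.39 on IV (335 regions) and 4.78 on V (340 regions). From 400 bp to under 1000 bp it was 6.97 on X, 8.42 on the autosomes, 7.35 on IV and 7.03 on V, so that V and X were nearly level. From 1000 bp up, where regions are few, it was 17.2 on X (10 regions), 22.3 on the autosomes (54 regions), 13.4 on IV (11 regions) and 20.1 on V (16 regions), so that X lay above IV. Under 20 bp the order turned, with 2.69 on X (111 regions) and 2.59 on the autosomes (675 regions). Within X, the right arm had 4.43 from 200 bp to under 400 bp, as high as IV as a whole, against 4.03 in the left arm and 3.82 in the centre. X also had more regions in that class, 35.1% against 30.9% on the autosomes, 32.4% on IV and 31.5% on V, which was not tested. Whether depth differs between X and the autosomes could not be seen from the list.

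Neighbouring regions of X lay at a median distance of 9.45 kb between midpoints (interval 8.21 to 10.4 kb). By zone, the median was 10.02 kb in the left arm, 9.23 kb in the centre and 9.04 kb in the right arm, with intervals that overlap throughout. On IV and V the medians were 9.06 and 8.93 kb, and over all autosomes 7.58 kb. A neighbour within 5 kb was found for 54.8% of the X regions (interval 51.8% to 57.7%), for 57.4% on IV (54.4% to 60.4%), for 57.0% on V (54.1% to 60.0%) and for 61.1% over the autosomes (59.8% to 62.4%). The intervals of X, IV and V overlap, and that of the autosomes as a whole lies above that of X. They treat regions as separate, although nearness is shared by both regions of a pair, and the difference was not tested. Density was also lower on X, at 61.1 per Mb against 67.9 per Mb over the autosomes.

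No 50 kb window of X was as crowded as the fullest ones of the autosomes. Over 355 windows of 50 kb the mean was 3.05 regions, and no window held more than 9. The highest count was 13 on IV and III and 27 on V and I, and 39 autosomal windows held 10 or more. The variance of the window counts was 1.52 times their mean on X, 1.55 times on IV and 2.70 times on V (scatter without any clustering gives a ratio of 1). Within X, this ratio was 1.31 in the left arm, 1.77 in the centre and 1.51 in the right arm. The centre also had the most empty windows, 18 of 127 (14.2%), against 10 of 123 in the left arm and 7 of 105 in the right arm. By these values counts in the centre were more uneven than in either arm, with 4 of the 7 windows that held 9 regions. The values have no interval, and the difference was not tested.

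The crowded windows of X differed in strength. Of the first 5 of the 7 by position, the window at 6.25 to 6.30 Mb had a median strength of 4.22 and a strongest region of 17.8. That at 10.55 to 10.60 Mb had a median of 3.26 and a highest value of 17.4. In the window at 4.95 to 5 Mb, which holds the widest region of the left arm, the median was 3.73. The windows at 10.35 to 10.40 Mb and at 11.45 to 11.50 Mb had lower medians, of 2.53 and 2.89, against 3.09 for all X regions. Their highest strengths were 6.49 and 7.85.

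**Figure D5:**
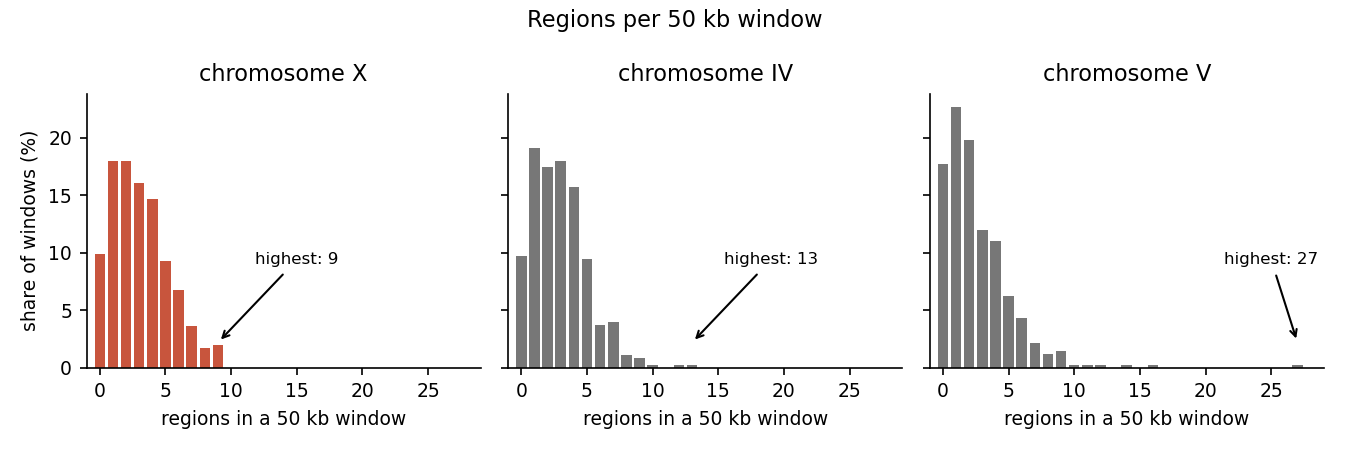
Share of 50 kb windows (%) by the number of regions they hold on X, IV and V. X and IV have similar shares in most classes, V has more empty windows (17.7% against 9.86% on X), and the counts end at 9 on X, 13 on IV and 27 on V.

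Gaps without a region were longer than 50 kb in 72 places on X and took up 30.3% of its span. They numbered 26 in the left arm, 26 in the centre and 20 in the right arm, or 30.8%, 32.8% and 26.7% of each zone. IV was alike, with 70 such gaps over 31.2% of its span, and V had 109 over 44.4%. A gap is a stretch in which no region passed the list's limit, and its sequence was not analysed here. The longest of X, of 177 kb, lay near the left end at 21323 to 198031. A single region of 60 bp separated it from another of 94.0 kb, at 198092 to 292139. The first 300 kb of X thus held 6 regions, whereas the last 300 kb of its span held 22. Second in length was a gap of 147 kb at 1644241 to 1791371, also in the left arm.

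The centre held 4 of the 8 gaps above 100 kb. Its longest, of 142 kb at 12205970 to 12347992, lay close to the border with the right arm. Its next longest, of 109 kb at 7678644 to 7787957, fell in the sparsest 1 Mb bin, and a gap of 106 kb followed at 10026508 to 10132504. In the right arm the longest were 145 kb at 14335041 to 14480257, 117 kb at 15375482 to 15492731 and 98.9 kb at 15742100 to 15841005.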

How the data were processed

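The authors deposited 1 list of regions for the whole series. Per the file headers, coordinates refer to WormBase WS180, and the source column names PeakSeq, a caller that scores precipitated against input DNA. The authors deposited a q-value with the first and last base of each region, in a list named as combined, and all q-values are below 0.01. Which aligner and caller version were used, and how the replicates were merged, is not given in the sources used here. Per the labels' protocols, chromatin was crosslinked with 2% formaldehyde and sheared by sonication.

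Widths, midpoints, gaps, joined stretches and counts in 50 kb windows were computed with Python 3.11.15, numpy 2.4.6, pandas 2.3.3 and scipy 1.17.1, and the functions were tested on simulated data. Figures were drawn with matplotlib 3.10.9. The span of X ran to the end of its last region, 17714571. Gaps and distances were put in a zone by their own midpoint. Regions were named by rule: in each zone the 5 smallest q-values, the 3 widest and the 3 longest gaps; over X, all above 1 kb, the 5 most crowded windows and the 5 stretches with most regions after joining within 2000 bp. The members, zones and measures were chosen with earlier results of these data known. Leaving out the strongest region, 1 Mb bins of the right arm, or all 7 windows tied as most crowded was added after seeing the values reported here.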

Additional observations from a re-analysis of the deposited data

How the results depend on the processing

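Of 121 values under alternatives, 77 stayed within the interval of the main value (for gap numbers and covered shares, within 1.5 times of it) without a turn in sign. For differences and zone values, each part was held against its own interval. The 10 differences whose sign turned were counted apart, whether or not their parts stayed within these intervals. The density ratio of centre to arms stayed within its interval under all 11. Centre minus arms, differences in medians were small (spacing −288.5 bp, width −2 bp, strength −0.02), and their sign was not stable. The difference in spacing turned to 2592 bp in the better 50% of q-values, 1655 bp at q-values under 0.001 and 69.5 bp without the 7 windows tied as most crowded (an alternative added after seeing the data). It was 332 bp without the first 5 of these by position. That cut, planned for 5 windows, removes the 4 of the centre and neither of the right arm. Both cuts drop regions but keep the length of their windows, and so raise spacing and lower density in the centre by construction. The difference in spacing was −148 bp after joining within 2000 bp. It also kept its sign, at −664, −915 and −1151 bp, with the borders moved inward or outward by 0.5 Mb and with equal parts of the span. The difference in width turned to 4.5 bp in the better 50%, 13 bp under 0.001, 15.5 bp without regions under 20 bp, and 2 and 3.5 bp after joining within 500 and 2000 bp. The difference in strength turned to 0.044 after joining within 500 bp and was −0.21, −0.28, −0.029 and −0.071 in the better 50%, under 0.001, without regions under 20 bp and after joining within 2000 bp, and −0.107 with borders inward. The difference in covered share was −0.078 percentage points, −0.019 after joining within 2000 bp, −0.00015 with borders outward and −0.185 and −0.140 without 5 or 7 crowded windows.

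Highest minus lowest zone, in the better 50%, under 0.001 and after joining within 2000 bp, density differed by 4.42, 3.59 and 4.97 per Mb, median spacing by 3878, 3127 and 175 bp, median strength by 0.53, 0.60 and 0.25, and median width by 18.5, 21 and 4 bp. Without regions under 20 bp, density differed by 4.67 per Mb and width by 22 bp, and without 7 or 5 crowded windows density differed by 6.52 or 9.60 per Mb. Stricter limits raise strength and spacing by construction. Moving the borders by 0.5 Mb put 29.9% (inward) or 41.2% (outward) of the regions in the centre. Gaps above 50 kb numbered 120 in the better 50% and 118 under 0.001; gaps above 25 and 100 kb numbered 222 and 8. The share with a neighbour within 5 kb was 33.5% in the better 50%, 34.5% under 0.001, and 50.5% and 29.6% after joining within 500 and 2000 bp; within 2 and 10 kb it was 31.3% and 74.95%.

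No paired analysis was possible because each region has a single value that merges both replicates, and for the same reason no replicate was left out. With depth unknown, a stretch without a region is known only to hold none past the list's limit.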

Other observations

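Close neighbours on X came mostly in pairs. When regions with gaps of up to 2000 bp were chained, the 1082 regions formed 868 stretches, of which 711 held 1 region, 115 held 2, 31 held 3 and 11 held 4 or more. Chained regions made up 34.3% of X (95% Wilson interval 31.5% to 37.2%, counting error only), 34.0% of IV and 39.2% of the autosomes. The largest chain of X held 6 regions, against 19 on I, 14 on II, 12 on IV, 11 on V and 7 on III. Chains of 4 or more held 4.44% of the X regions and 8.37% of the autosomal ones. The centre held 6 of the 11 on X, the right arm 3 and the left arm 2. Of all X regions these zones held 34.7%, 30.5% and 34.8% in that order, and the difference was not tested. The chain of 6 regions lay in the centre at X 6617570 to 6622958, and regions covered 39.5% of its 5.39 kb, with a highest strength of 7.03. Chains of 5 lay in the centre at 11030869 to 11036540 and in the right arm at 13141307 to 13147291. The first begins with the fourth strongest region of the centre (20.0) and the second contains the second widest of the right arm (18.04), yet each also holds a region with a strength of 2.23. The first chains of 4 by position lay in the left arm at 2807418 to 2809908 and at 4969180 to 4971782. The list alone does not show whether such regions are separate sites or one stretch divided by the caller.

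A region's strength showed little relation to that of its neighbour on X. Over 1081 neighbouring pairs Spearman's rho was −0.05, with −0.09 over the 214 pairs with a gap of up to 2 kb. Strength and the distance to the nearest region had a rho of 0.00 over 1082 regions, and between −0.02 and 0.03 in each zone. Regions alone in a stretch had a median strength of 3.08 and a median width of 193 bp, and those in chains 3.17 and 202 bp. This order was not seen in every zone. In the left arm chained regions were narrower (173 bp, against 191 bp alone), and in the right arm the median strength was 3.22 in both. Chained regions were wider in the centre and the right arm, and stronger in the centre and the left arm. These are descriptions over regions of 1 list, which share libraries, depth and caller, and no p-value is given.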
